A study of Saccharomyces cerevisiae with 24 samples.

Results

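Glucose-grown Saccharomyces cerevisiae in which the transcription factor Sef1 carried the VP16 activation domain differed from the wild type by a small set of very large increases, among them genes of the tricarboxylic acid (TCA) cycle, propionate breakdown and iron-sulfur cluster assembly, and by a wide set of modest differences. The comparison described here set 4 arrays of the SEF1-VP16 strain in YPD against 4 arrays of the wild-type strain (WT) in YPD, which are 8 of the 24 arrays of the study, chosen by strain and medium alone. Both strains were haploids of the W303 background with the genotype MATa with mutations in his3, trp1, ura3, ade2, leu2 and can1. The SEF1-VP16 strain, a single clone, carried in addition SEF1-VP16::FRT, a fusion of the viral VP16 activation domain to the C-terminus of Sef1 at the native locus. YPD is the glucose medium of fermentative growth. Overnight cultures in YPD were brought down to an OD600 of 0.2 per ml and kept at 30 °C for 5.5 h, into log phase. The other arrays, used only where named, were of the same 2 strains in YPGly, the glycerol medium of respiratory growth, and of sef1, the strain with SEF1 deleted, in both media. The labels describe the 4 arrays of a group as biological repeats.

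Sef1 belongs to the zinc cluster family of fungal transcription factors, and VP16 is a strong activation domain of herpes simplex virus that recruits the transcription machinery wherever the protein it is fused to binds. Budding yeast ferments glucose even in air, and in that state it represses the genes of respiration, of the TCA cycle and of other carbon sources. The comparison asks which transcripts are higher under that repression when Sef1 carries a strong activation domain.

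All levels are log2 spot intensities minus the 75th percentile of the array, so that 0 is the level below which 75% of the probes lie, and 1 unit is a 2-fold step. They are relative to the other transcripts on the array, and in whole cultures a change in RNA per cell and a change in the share of cells that express a gene cannot be told apart. The strains lay on different slides. WT in YPD shared slide 1 with sef1 in YPD, SEF1-VP16 in YPD shared slide 2 with WT in YPGly, and slide 3 held sef1 and SEF1-VP16 in YPGly. For the comparison in YPD the strain and the slide cannot be told apart, so values from arrays of the other groups are given beside the results, and the comparison in YPGly and a fit with the slide as a term follow at the end. Arrays of SEF1-VP16 correlated with each other across genes with r of 0.996 to 0.999 and WT arrays with r of 0.988 to 0.997, whereas arrays of different strains gave 0.976 to 0.986. The first principal component (69.2% of the variance) separated the strains, and the second (17.5%) set WT replicate 4 apart from the other arrays. Between 95.7% and 98.3% of probes were well above background on the 8 arrays, no spot was saturated, and WT replicate 1 had 79 spots left out as marked by the scanner software, against at most 19 on any of the other 7 arrays.

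SEF1 itself (YBL066C) had levels of −5.08, −5.38, −5.28 and −5.47 on the SEF1-VP16 arrays and of −4.60, −4.60, −4.83 and −4.13 on the WT arrays. The groups did not overlap, and the fused gene measured lower by 0.76 ± 0.14 (limma SE, adjusted p = 0.0015). In sef1 in YPD the mean was −9.47, so the probe read SEF1 in both strains compared here. The labelled mating type was visible as well. All 7 a-specific genes, among them the pheromone genes MFA1 and MFA2, were well above background on all 8 arrays, with a summed linear level of 4.63 to 4.97 in SEF1-VP16 and 4.59 to 4.79 in WT. The 4 alpha-specific genes summed to 0.0601 to 0.0626 and 0.0704 to 0.0803, and of these MF(ALPHA)1 and MF(ALPHA)2, at mean levels near the lower end of the array, were not well above background on every array.

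Each gene was read by a single probe of 60 bases. The probes of the genes on which the results turn are shown 5′ to 3′, since what was measured is the labelled cDNA that pairs with them. The first 5 belong to genes with large increases in SEF1-VP16, the next to UTP18 of ribosome biogenesis and the last to SPG1, the gene with the largest decrease.
ECM13: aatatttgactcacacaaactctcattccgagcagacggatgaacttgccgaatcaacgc
PDH1: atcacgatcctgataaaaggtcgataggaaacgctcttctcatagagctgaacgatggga
UPS2: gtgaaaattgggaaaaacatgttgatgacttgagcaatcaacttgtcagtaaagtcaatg
IDH1: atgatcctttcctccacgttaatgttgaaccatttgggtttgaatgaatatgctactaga
IDH2: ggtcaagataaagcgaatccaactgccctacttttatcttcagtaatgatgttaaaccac
UTP18: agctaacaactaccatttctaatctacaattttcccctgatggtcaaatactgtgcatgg
SPG1: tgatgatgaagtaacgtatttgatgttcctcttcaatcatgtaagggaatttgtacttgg

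Some genes of sugar use come in near-identical copies, and their probes differ by 2 bases, shown in capitals. Counted from 1 at the 5′ end, the MAL12 and MAL32 probes differ by C18T and C35T and the HXT6 and HXT7 probes by G13A and T24C, so the members of a pair cannot be read as independent measurements.
MAL12: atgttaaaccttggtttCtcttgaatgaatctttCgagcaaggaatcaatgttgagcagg
MAL32: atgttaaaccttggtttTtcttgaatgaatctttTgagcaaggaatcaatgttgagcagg
HXT6: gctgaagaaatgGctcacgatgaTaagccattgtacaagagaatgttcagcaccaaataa
HXT7: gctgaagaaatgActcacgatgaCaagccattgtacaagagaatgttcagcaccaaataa

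Of 5641 probes tested, 516 (9.15%) were called, meaning an adjusted p below 0.05 by limma together with a change of 1.5-fold or more. In SEF1-VP16, 319 (5.66%) were higher and 197 (3.49%) lower. The increases reached much further than the decreases. At 2-fold or more there were 83 higher and 31 lower probes, and at 4-fold or more 10 higher and 0 lower. Most calls were small, with 236 of the increases and 166 of the decreases under 2-fold. Of the 516, 513 had all 4 arrays of one strain on one side of all 4 of the other, as had 45.1% of all probes tested. Scaling the arrays on the median in place of the 75th percentile moved the median difference of all probes from 0.03 to −0.07 and the increases from 319 of 516 calls (61.8%) to 228 of 512 (44.5%), and quantile normalization gave 255 of 482 (52.9%), so the balance of increases and decreases depends on the scaling. The plot of differences against level shows the few large increases standing clear of this band.

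**Figure D1:**
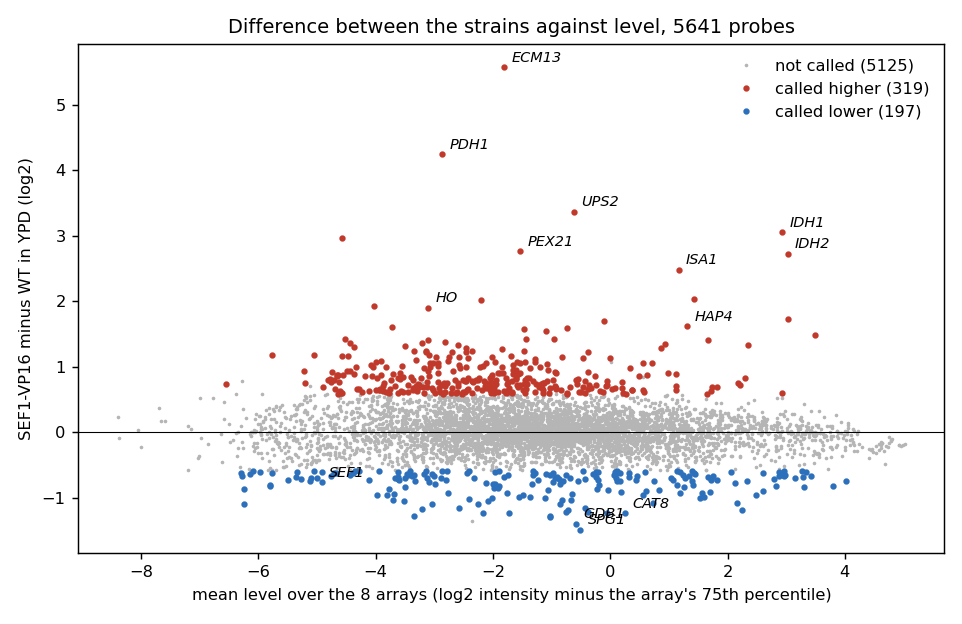
Difference between SEF1-VP16 and WT in YPD (log2, vertical axis) against the mean level over the 8 arrays (log2 intensity minus the array's 75th percentile, horizontal axis) for 5641 probes. Red points are the 319 probes called higher, blue points the 197 called lower and grey points the rest, and the named increases lie at all levels of the array.

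The largest increase was that of ECM13 (YBL043W), a gene whose function is not established. Its levels were 1.08, 1.01, 1.01 and 0.82 on the SEF1-VP16 arrays and −4.66, −4.49, −4.53 and −4.71 on the WT arrays. The gene thus went from far below the 75th percentile of the array to above it, a rise of 5.58 ± 0.07, or 47.8-fold (limma adjusted p = 5.9e-11). PDH1, the mitochondrial 2-methylcitrate dehydratase of propionate breakdown, measured −0.54, −0.77, −0.73 and −0.91 in SEF1-VP16 and −5.04, −4.94, −5.03 and −4.95 in WT. It rose 19.0-fold. UPS2, a mitochondrial intermembrane space protein of phospholipid transfer, measured 0.99, 1.05, 1.06 and 1.16 in SEF1-VP16 and −2.29, −2.21, −2.36 and −2.34 in WT, a rise of 10.3-fold. Its level in sef1 in YPD, on the same slide as WT, averaged −0.42. PEX21, a peroxin that helps import of proteins with the second type of peroxisomal targeting signal, rose by 2.76 ± 0.07, while its paralogue PEX18, of the same import route, fell by 0.97 ± 0.09, and no other of 28 peroxisome biogenesis genes tested was called. AAT2, the cytosolic aspartate aminotransferase, measured 3.62, 3.83, 4.16 and 4.01 in SEF1-VP16 against 2.19, 2.17, 2.18 and 2.13 in WT, a rise of 1.74 ± 0.10. HAP4, the activating subunit of the HAP complex that drives respiratory genes, measured 2.00 to 2.20 in SEF1-VP16 and 0.41 to 0.55 in WT, a rise of 1.62 ± 0.06. Further members of the 15 largest increases were INO2, the activator of phospholipid synthesis genes (1.93 ± 0.21), HO, the endonuclease of mating-type switching (1.90 ± 0.11), and APJ1, an Hsp40-type chaperone (1.70 ± 0.15). These last genes were under no Sef1 binding peak. YOR135C, which the reference gene table does not list and whose systematic name is next to that of IDH2, rose by 2.96 ± 0.26 from a level near −6.

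**Figure D2:**
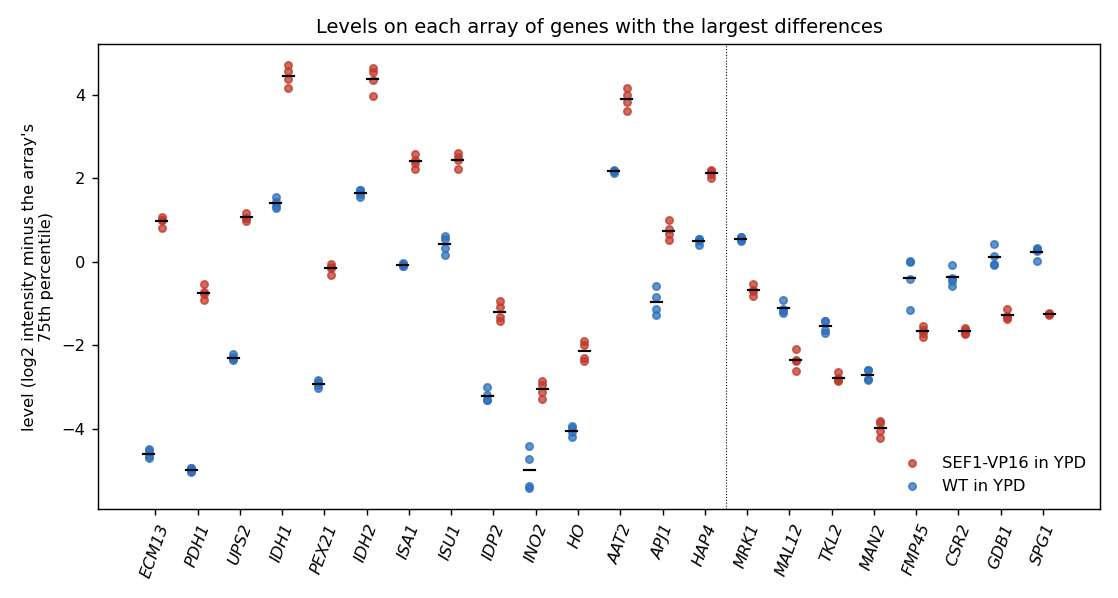
Level of genes with the largest increases (left of the dotted line) and decreases (right of it) on each array (log2 intensity minus the array's 75th percentile). Each point is 1 of the 4 SEF1-VP16 (red) or 4 WT (blue) arrays in YPD and bars are means. By the rule of choice, the 4 points of one strain lie on one side of the other 4, as for 45.1% of all probes.

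Within the TCA cycle 6 of 27 genes tested rose (22.2%, against 5.66% of all probes), and the largest increases lay at the steps from citrate to 2-oxoglutarate. IDH1 and IDH2 encode the subunits of the mitochondrial NAD-dependent isocitrate dehydrogenase. IDH1 measured 4.17, 4.39, 4.72 and 4.58 in SEF1-VP16 and 1.34, 1.43, 1.29 and 1.57 in WT, a rise of 3.06 ± 0.11, or 8.32-fold. IDH2 measured 3.98, 4.37, 4.64 and 4.55 against 1.62, 1.72, 1.73 and 1.56, a rise of 2.72 ± 0.13, or 6.61-fold. Both subunits reached a level far above the 75th percentile of the array, and replicate 1 of SEF1-VP16 was the lowest of its group for each. ACO1, the mitochondrial aconitase, measured 3.81, 4.19, 4.66 and 4.30 against 2.65, 2.70, 2.77 and 2.86 and rose by 1.49 ± 0.15. IDP2, the cytosolic NADP-dependent isocitrate dehydrogenase, rose by 2.02 ± 0.11, CIT2, the peroxisomal citrate synthase, by 1.14 ± 0.13 and FUM1, the fumarase, by 0.73 ± 0.09. These 6 were the only increases among 27 TCA cycle genes tested, and SHH3, a paralogue of a succinate dehydrogenase subunit, fell by 1.09 ± 0.08. The median difference of the 27 genes was −0.13, below the 0.03 of all probes. In the methylcitrate cycle, which degrades propionyl-CoA, PDH1 and the mitochondrial 2-methylisocitrate lyase ICL2 (0.63 ± 0.05) rose, and the citrate and methylcitrate synthase CIT3 differed by 0.55 ± 0.06 without reaching 1.5-fold. ICL2 no longer reached 1.5-fold with scaling on the array median (0.53). MLS1, the malate synthase of the glyoxylate shunt, rose by 1.14 ± 0.14, whereas FBP1, the fructose-1,6-bisphosphatase of gluconeogenesis, fell by 0.66 ± 0.09.

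Among genes of iron use, 2 were among the largest increases. ISA1 and ISU1 encode mitochondrial proteins of iron-sulfur cluster assembly, the first a maturation factor for enzymes such as aconitase and the second the scaffold. ISA1 measured 2.23, 2.37, 2.58 and 2.44 in SEF1-VP16 and −0.10, −0.05, −0.11 and −0.03 in WT, a rise of 2.48 ± 0.07. ISU1 measured 2.22, 2.46, 2.61 and 2.51 against 0.17, 0.62, 0.33 and 0.54, a rise of 2.03 ± 0.11. Together with TAH18 of the cytosolic assembly pathway (1.00 ± 0.08) they were the 3 increases among 26 genes of cluster assembly, which had a median of 0.07 (−0.03 with scaling on the array median). Among 15 genes of iron regulation and iron use, 4 rose (26.7%) and 1 fell (6.67%, against 3.49% of all probes), with a median of 0.17. The increases were ISU1, TIS11 (also called CTH2, an mRNA decay factor of iron starvation; 1.61 ± 0.10), its paralogue CTH1 (0.78 ± 0.08) and AFT2, an activator of iron uptake genes (1.25 ± 0.05), and the decrease was the haem oxygenase HMX1 (−0.63 ± 0.09), whose call was lost without WT replicate 2 (−0.54). Of 14 genes of reductive iron and copper uptake 2 rose (14.3%) and 1 fell (7.14%), against 5.66% and 3.49% of all probes. Their median was −0.03, and 4 were higher and 5 lower by adjusted p alone (26.1% and 22% of all probes). The ferroxidase FET3 measured −1.16, −1.73, −1.31 and −1.56 in SEF1-VP16 against −2.70, −2.42, −2.43 and −2.82 in WT (1.15 ± 0.13). Its permease FTR1 was higher by 0.63 ± 0.08, a call lost with either other scaling (0.54). The ferric reductase FRE2 was lower by 0.60 ± 0.08, at the edge of the fold minimum, and lost its call without SEF1-VP16 replicate 2 or 4 or WT replicate 1 or 3 (−0.58 to −0.56). Siderophore uptake gave a single call in glucose. Of 9 genes only the ferrioxamine transporter SIT1 was called (0.94 ± 0.11), from a low level near −5, and the cell wall siderophore proteins FIT2 and FIT3 and the ferrichrome transporter ARN1 differed by 0.32 ± 0.09, 0.13 ± 0.12 and 0.13 ± 0.09. The related FIT1 (−0.51 ± 0.05) and the transporter ARN2 (−0.39 ± 0.08) differed the other way without reaching 1.5-fold, though FIT1 was called with scaling on the array median (−0.61). By adjusted p alone 2 of the 9 were higher and 4 lower, against 26.1% and 22% of all probes. The same 9 genes had a median difference of 1.5 in YPGly, with 6 called higher. ROX1, the repressor of hypoxic genes, rose by 0.85 ± 0.07.

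The study picked 6 genes as candidates on these arrays, so their direction is not independent of the data. Of these ECM13, PEX21, AFT2, NDE1 and MIG2 rose, and CIT3 was the sixth. NDE1, the major external NADH dehydrogenase of the mitochondrial inner membrane, measured 2.31, 2.51, 2.79 and 2.55 in SEF1-VP16 and 1.68, 2.06, 1.82 and 1.63 in WT, a rise of 0.75 ± 0.12, or 1.68-fold (limma adjusted p = 0.00069). It stood alone in its family. Of the other 6 genes of NADH and glycerol phosphate dehydrogenases none was called higher, while NDE2, its isoenzyme (−1.02 ± 0.09), GUT2, the mitochondrial glycerol-3-phosphate dehydrogenase (−0.87 ± 0.08), and NDI1, the internal NADH dehydrogenase (−0.63 ± 0.05), fell. NDI1 lost its call with normexp background correction (−0.54). Of 23 regulators of glucose repression 5 rose (21.7%, against 5.66% of all probes) and 1 fell (4.35%, against 3.49%), with a median of −0.05. With scaling on the array median or by quantiles 3 rose. MIG2 and NRG2, repressors of glucose-repressed genes, rose by 1.28 ± 0.08 and 1.24 ± 0.09, and CAT8, an activator of genes for growth on other carbon sources, fell by 1.24 ± 0.07 from 0.74 to 1.01 in WT to −0.47 to −0.29 in SEF1-VP16. SIP4, also an activator of gluconeogenic genes, rose by 0.65 ± 0.11, a call lost with either other scaling (0.56) and without WT replicate 4 (0.54).

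The largest list of increases was that of the genes that make ribosomes. Of 155 ribosome biogenesis genes tested 70 were higher and 0 lower, 45.2% against the 5.66% of all probes, and 115 of the 155 had groups that did not overlap, against 45.1% of all. Their median difference was 0.54, and by adjusted p alone 120 were higher and 2 lower, against 26.1% and 22% of all probes. UTP18, a component of the small subunit processome, measured −3.94, −3.83, −3.85 and −3.67 in SEF1-VP16 and −5.64, −5.06, −5.46 and −4.81 in WT and rose by 1.42 ± 0.16. The WT arrays spread over more than the SEF1-VP16 arrays. SPB1, a methyltransferase of 60S maturation, rose by 1.42 ± 0.14, UTP6, another processome component, by 1.40 ± 0.16, RRP9, a protein of the U3 small nucleolar ribonucleoprotein, by 1.33 ± 0.13, BFR2 by 1.30 ± 0.14 and LCP5 by 1.24 ± 0.16, both factors of 18S rRNA maturation. Of 23 subunits of RNA polymerases I and III 7 rose (30.4%, against 5.66% of all probes), with a median of 0.48. RPA12 (1.31 ± 0.12) and RPA34 (1.00 ± 0.09) of RNA polymerase I led them. The ribosomal proteins themselves did not follow. Of 137 cytosolic ribosomal protein genes 5 were higher (3.65%, against 5.66% of all probes) and 0 lower. Their median of 0.07 became −0.02 with scaling on the array median, and RPS9A was the one of the 5 named by its size (1.14 ± 0.10). None of 74 mitochondrial ribosomal protein genes and none of 34 proteasome genes was called.

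The median level of the 155 ribosome biogenesis genes was −1.36, −1.42, −1.38 and −1.38 on the 4 SEF1-VP16 arrays, and −2.09, −1.64, −1.93 and −1.74 on the 4 WT arrays. It was −1.75, −1.60, −1.79 and −1.60 on the sef1 arrays in YPD, which lay on the WT slide. The SEF1-VP16 arrays were higher than all 8 arrays of the other slide, and the WT and sef1 arrays overlapped. In YPGly 0 of the 155 genes were called in either direction and the median difference was 0.02, and with the slide as a term of the fit, 3 were called higher and 1 lower.

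Of 24 cyclin and cell cycle genes 7 rose (29.2%, against 5.66% of all probes) and 0 fell (median 0.26). In YPGly their median difference was −0.24, with 0 called higher and 1 lower, and with the slide as a term 0 were called. The G1 cyclins CLN1 and CLN2, which start the cell cycle, rose by 0.89 ± 0.06 and 1.05 ± 0.11, and FAR1, the inhibitor that arrests it in response to pheromone, rose by 1.05 ± 0.09. RNR1, the large subunit of ribonucleotide reductase, measured −0.50, −0.14, −0.51 and −0.18 in SEF1-VP16 and −1.97, −1.83, −1.90 and −1.79 in WT, a rise of 1.54 ± 0.10. Of 26 genes of sulfur amino acids 5 rose (19.2%, against 5.66% of all probes) and 0 fell (median 0.35). With scaling on the array median 2 were called, and in YPGly 0 were. The 5 included the cystathionine beta-lyase STR3 at 1.37 ± 0.20 and the adenylylsulfate kinase MET14 at 0.78 ± 0.06. Further increases were those of the long-chain acyl-CoA synthetase FAA4 (1.28 ± 0.13), the mitochondrial carrier YMC2 (1.07 ± 0.16), the weak acid exporter PDR12 (1.22 ± 0.06) and BTN2, a sorting factor of misfolded proteins (1.34 ± 0.21).

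**Figure D3:**
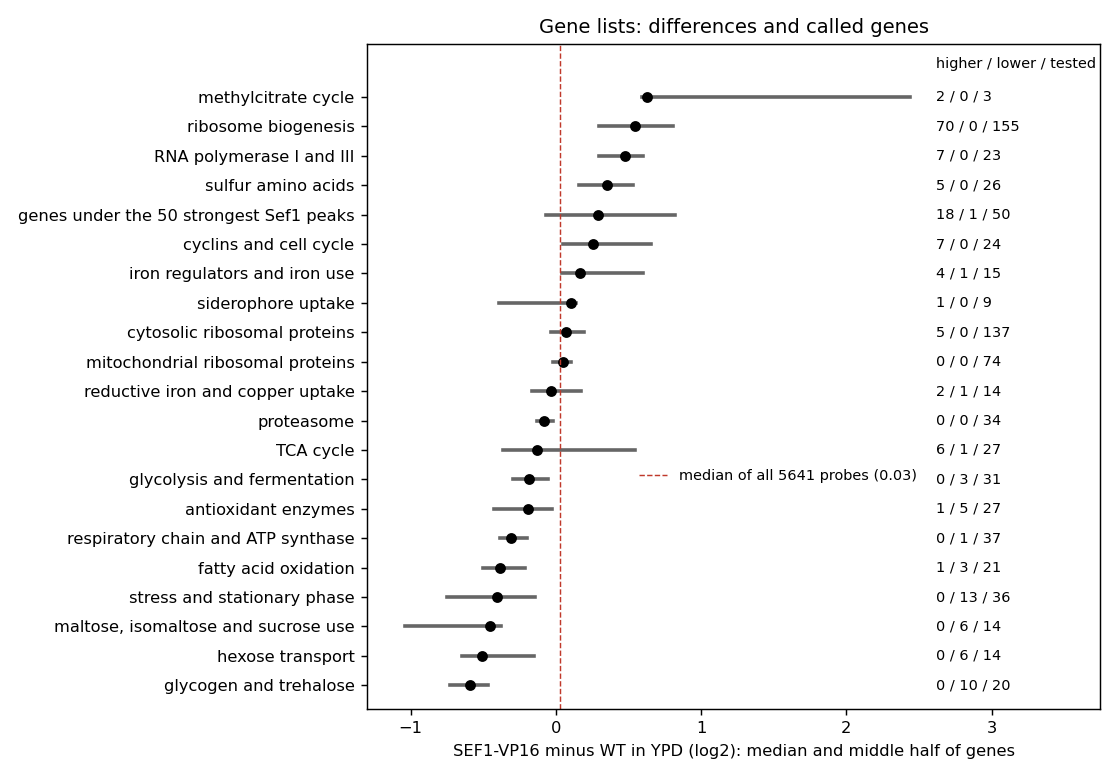
Gene lists ordered by their median difference between SEF1-VP16 and WT in YPD (log2). Points are medians, grey bars span the middle 50% of a list's genes, the dashed line is the median of all 5641 probes (0.03), and the numbers at the right count genes called higher, called lower and tested. Ribosome biogenesis lies to the right and the lists of storage carbohydrate, sugar transport and stress to the left.

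The decreases ran through reserve carbohydrate, sugar uptake and stress genes, and none of them exceeded 3-fold. SPG1, a gene named for its need in stationary phase, measured −1.26, −1.25, −1.29 and −1.22 in SEF1-VP16 and 0.32, 0.32, 0.27 and 0.03 in WT, the largest decrease at −1.49 ± 0.07, or 2.81-fold (limma adjusted p = 1.1e-06). GDB1, the glycogen debranching enzyme, measured −1.14, −1.33, −1.31 and −1.36 against 0.43, −0.05, 0.14 and −0.08, a fall of 1.40 ± 0.11. Of 20 genes of glycogen and trehalose 10 were lower and 0 higher (3.49% of all probes were lower; median −0.59), and 15 were lower with scaling on the array median. Enzymes of synthesis and of breakdown were among them. Glycogen synthase GSY2 fell by 0.90 ± 0.06 and the branching enzyme GLC3 by 0.82 ± 0.05, while glycogen phosphorylase GPH1 fell by 0.82 ± 0.10, acid trehalase ATH1 by 0.80 ± 0.11 and phosphoglucomutase PGM2 by 0.71 ± 0.08. The median level of the 20 genes was 0.76, 0.76, 0.75 and 0.70 on the SEF1-VP16 arrays, 1.25, 1.03, 1.16 and 1.1 on the WT arrays and 1.06, 1.05, 1.02 and 0.98 on the sef1 arrays of the WT slide. Both groups of the WT slide lay above all 4 SEF1-VP16 arrays.

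Of 36 stress and stationary phase genes 13 were lower (36.1%, against 3.49% of all probes) and 0 higher (median −0.41). Their median level was −0.34, −0.36, −0.33 and −0.32 on the SEF1-VP16 arrays and 0.32, 0.31, 0.32 and 0.27 on the WT arrays, with 0.11, 0.10, 0.11 and 0.13 for sef1. Here the sef1 arrays lay between the other groups, apart from both. Besides SPG1 the genes included MRK1, a kinase of the glycogen synthase kinase 3 family (−1.24 ± 0.07), and ALD3, a cytosolic aldehyde dehydrogenase (−1.19 ± 0.09). HSP12, the small membrane-stabilizing stress protein, fell by 1.09 ± 0.07 and CTT1, the cytosolic catalase, by 0.92 ± 0.06. Of the 37 heat shock and chaperone genes, though, 4 were higher and 4 lower (10.8% each, against 5.66% and 3.49% of all probes).

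Of 14 genes of maltose, isomaltose and sucrose use 6 were lower (42.9%, against 3.49% of all probes) and 0 higher (median −0.45). In YPGly 1 was higher and 0 lower, with a median of 0.09, and adding the slide to the fit gave the same counts. The maltase probes of MAL12 (−1.24 ± 0.11) and MAL32 (−1.15 ± 0.10) read near-identical copies. The maltose permease genes MAL31 and MAL11 fell by 1.19 ± 0.11 and 0.98 ± 0.11, the isomaltase IMA5 by 1.06 ± 0.16 and the invertase SUC2 by 0.84 ± 0.09. Of 14 hexose transport genes 6 were lower (42.9%, against 3.49% of all probes) and 0 higher (median −0.51). Among the 6 were HXT2 (−0.67 ± 0.10), HXT4 (−0.66 ± 0.09), HXT7 (−0.61 ± 0.15) and the glucose sensor SNF3 (−0.75 ± 0.06). In YPGly 2 of the 14 were higher and 0 lower (median 0.07), and with the slide as a term 6 were higher and 1 lower. HXT7 and its near-copy HXT6 lay close to the fold minimum. HXT6 differed by −0.56 ± 0.14 in a fit on 7 arrays, because its value on WT replicate 1 was missing, and was not called. HXT7 lost its call without SEF1-VP16 replicate 1 (−0.52), without WT replicate 1 (−0.58) and without WT replicate 3 (−0.50), and HXT4 without WT replicate 3 (−0.57).

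Other members of the 15 largest decreases were CSR2, an arrestin-related ubiquitin ligase adaptor (−1.29 ± 0.10), FMP45, a membrane protein of the cell cortex (−1.29 ± 0.22), the mannitol dehydrogenase MAN2 (−1.28 ± 0.10) and the transketolase TKL2 (−1.24 ± 0.08). FMP45 had the widest WT spread of these, from −1.15 to 0.02. YBR116C, not listed in the reference table (−1.22 ± 0.09), and the uncharacterized YNL195C (−1.21 ± 0.09), YDL218W (−1.17 ± 0.09) and YMR206W (−1.16 ± 0.10) completed them. Of 37 genes of the respiratory chain and ATP synthase 0 were higher and 1 lower, the hypoxic cytochrome c isoform CYC7 (−1.0 ± 0.09), while scaling on the array median gave 5 lower. The median of the 37 was −0.31, and 25 of them were lower by adjusted p alone, as were 1243 of all 5641 probes (22%). In YPGly 0 of them were called, with a median of −0.04. Of 21 genes of fatty acid oxidation 3 were lower (14.3%, against 3.49% of all probes) and 1 higher (4.76%, against 5.66%). Their median was −0.39, and the thiolase POT1 (−1.10 ± 0.08) led the decreases. With scaling on the array median or by quantiles 6 were lower.

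**Figure D4:**
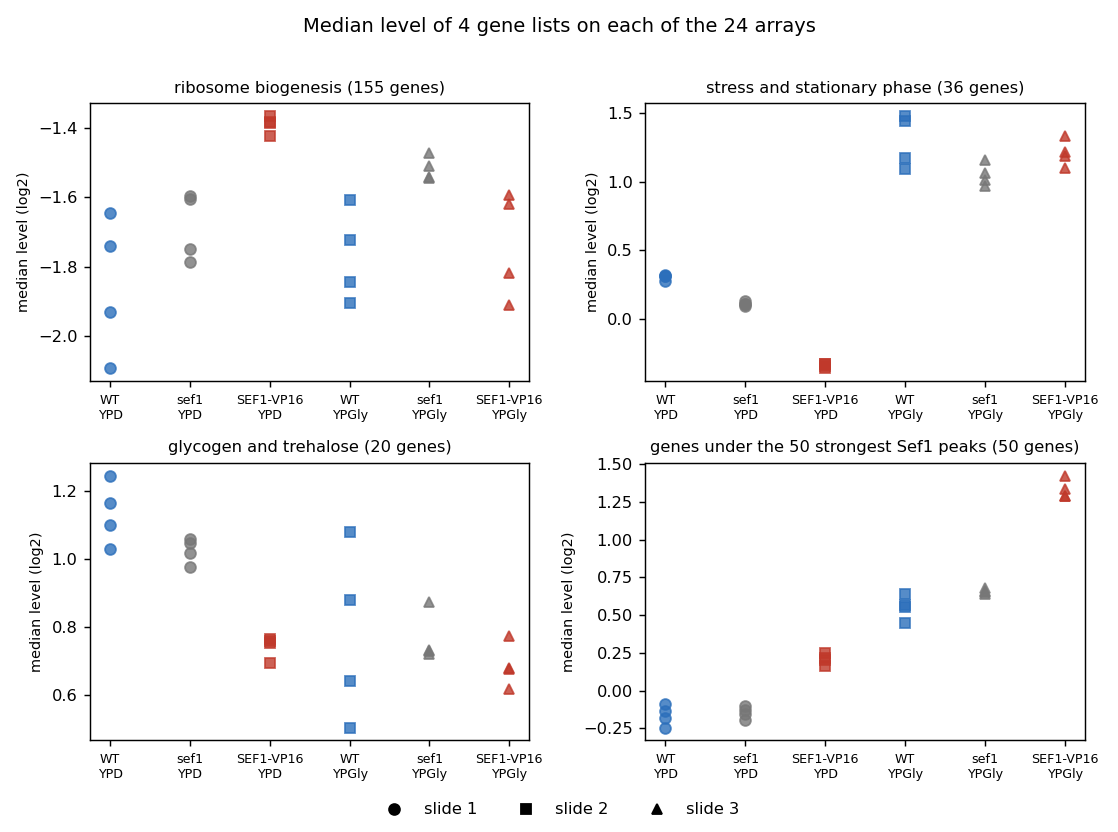
Median level of 4 gene lists on each of the 24 arrays (log2 intensity minus the array's 75th percentile), grouped by strain and medium. Each point is 1 array, its colour gives the strain and its shape the slide, and for ribosome biogenesis in YPD the 4 SEF1-VP16 arrays (−1.42 to −1.36) lie above the 4 WT arrays (−2.09 to −1.64) and the 4 sef1 arrays (−1.79 to −1.60).

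Binding peaks of Sef1, mapped in the same study, were set beside the differences. They were mapped with TAP-tagged Sef1 without VP16, and any peak means one found in YPD or in YPGly. Of all 5641 probes 10.2% belonged to genes named under any peak. Of the 319 increases 21.0% did, and of the 197 decreases 12.2%. The share was 33.7% of the 83 increases of 2-fold or more and 16.5% of the 236 smaller ones. All 10 probes raised 4-fold or more were under a peak, 8 of them under 1 of the 50 most enriched in glucose. The 10 include both IDH2 and YOR135C, whose systematic names are adjacent, so these need not be separate observations. From the side of the peaks, the share called higher was above that of all probes (5.66%), though most genes were not called. Of the 50 genes named under the strongest peaks 18 were higher (36%) and 1 lower (2%, against 3.49% of all probes), with a median of 0.29. Of the 577 genes under any peak 67 were higher (11.6%) and 24 lower (4.16%), with a median of 0.04 (0.03 over all probes). Scaling on the array median gave 47 higher and 37 lower of the 577. The median level of the 50 genes was 0.16 to 0.25 on the SEF1-VP16 arrays, −0.25 to −0.09 on the WT arrays and −0.19 to −0.10 on the sef1 arrays in YPD.

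Some lead genes lie beside a gene that is transcribed away from them, and such neighbours were taken at any distance. The neighbour moved in some cases and not in others. Across the genome 2526 tested genes had such a neighbour. The neighbour of an increased gene was itself increased for 18 of 146 (12.3%), against 5.78% of all 2526. The neighbour of a decreased gene was decreased for 8 of 74 (10.8%, against 2.93% of all). A pair that moved together counts in these numbers from each of its genes, so they are not separate observations. NCE103, the carbonic anhydrase gene 811 bases from IDH1, rose by 0.70 ± 0.09, and YDR124W, 846 bases from INO2, by 1.17 ± 0.15. KTI12, a factor of tRNA wobble modification 2346 bases from HAP4, rose by 0.68 ± 0.08, a call lost with quantile normalization (0.58). Each of these neighbours moved less than its lead gene, which the choice of lead genes by size makes likely. GIP3, divergent from ISU1, differed by −0.13 ± 0.08 and was not called. Among the decreases MAL11 fell with MAL12, while TEF2 (−0.21 ± 0.20), GPI12 (−0.18 ± 0.06), APL4 (0.24 ± 0.05) and PFK2 (0.10 ± 0.06), the neighbours of TKL2, CAT8, CSR2 and YMR206W, were not called.

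The strains were also compared in YPGly, on arrays that share none with the comparison in YPD, although WT in YPGly lay on the slide of SEF1-VP16 in YPD. There 62 probes (1.1%) were called, of which 51 (0.904%) rose and 11 (0.195%) fell. From the 516 calls of YPD, 23 were higher in both media and 1 lower in both, 2 were higher in YPD and lower in YPGly, and 3 were lower in YPD and higher in YPGly. The 319 increases of YPD had a median difference of 0.01 in YPGly and the 197 decreases one of −0.05, beside −0.02 for all probes. The largest increases carried over. ECM13 was higher by 3.42 ± 0.08 in YPGly, PEX21 by 2.60 ± 0.10, ISA1 by 2.48 ± 0.10, UPS2 by 2.36 ± 0.15, IDH2 by 2.02 ± 0.13, ISU1 by 1.86 ± 0.09, IDH1 by 1.69 ± 0.13, AAT2 by 1.59 ± 0.07 and PDH1 by 1.31 ± 0.16. Of the 10 probes raised 4-fold or more in YPD 9 were called in YPGly, the exception being IDP2 (0.38 ± 0.08), whereas of the 236 smaller increases 5 were. HO was lower in YPGly, by 0.63 ± 0.09. None of the 15 largest decreases was called in YPGly. Across all 5641 probes the differences in the 2 media had r = 0.21 (Spearman rho = 0.01), and across the 50 genes under the strongest peaks r = 0.84 (rho = 0.65). Genes are not independent replicates, so these values are descriptions.

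**Figure D5:**
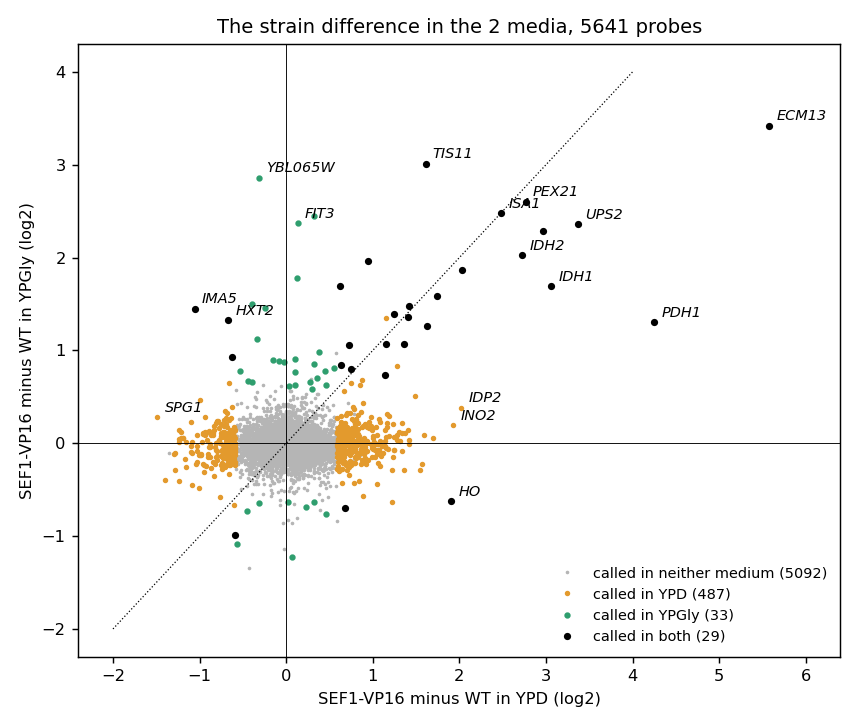
Difference between SEF1-VP16 and WT (log2) in YPGly, vertical axis, against the same difference in YPD, horizontal axis, for 5641 probes. Black points were called in both media, orange in YPD, green in YPGly and grey in neither, and the dotted line marks equal differences. Genes such as ECM13, PEX21 and ISA1 are high in both media, while most probes spread along the YPD axis around 0 in YPGly (r = 0.21 over all probes).

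The difference between the media was itself tested, as the difference in YPGly minus that in YPD over 16 arrays. The test called 597 probes (10.6%), among them 251 of the 319 increases and 140 of the 197 decreases of YPD. Those genes were selected for their difference in YPD, which the test subtracts, so the selection favours calls towards a smaller difference. Only 2 of the 251 had a larger difference in YPGly, and 0 of the 140 a more negative one. PEX21, ISA1, ISU1 and AAT2 were not called, with values of −0.16 ± 0.12, −0.00 ± 0.13, −0.17 ± 0.15 and −0.15 ± 0.13. The slides change with the medium in this test, so an effect of the medium on the strain difference and an effect of the slide cannot be told apart.

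A fit of strain, medium and slide over all 24 arrays estimates 1 strain difference for both media while allowing each slide its own level. It necessarily adds the difference of sef1 from WT in YPD to that of SEF1-VP16 from sef1 in YPGly. The arrays of SEF1-VP16 in YPD do not enter that estimate, so the fit cannot test the difference in YPD. It called 173 probes, 52 of them among the 516 and in the same direction, 42 higher and 10 lower, and 113 of the 516 had the opposite sign. All 10 probes raised 4-fold or more were called higher in it, with ECM13 at 3.00, PEX21 at 2.65 and IDH2 at 2.73, against 13 of the 236 smaller increases. Among the 15 largest decreases CSR2 (−0.93) and MRK1 (−1.24) were called. No member of the glycogen and trehalose list was called. Of the 108 genes named 54 kept their sign but lost their call, among them NDE1 (0.55), ACO1 (0.80), SPG1 (−0.29) and CAT8 (−0.47). Another 29 kept their sign and were called or not called as before. A further 21 changed sign, among them SEF1 (1.08), HXT2 (2.39), HXT4 (1.29), IMA5 (2.03), CIT2 (−0.39), HO (−0.11), TAH18 (−0.014), HMX1 (0.39) and PDR12 (−0.24). An effect limited to 1 medium, a slide effect and an effect of the SEF1 deletion can each remove calls or change signs in this fit. For SEF1 both terms of the estimate hold readings from the strain without the gene (mean −9.47 in YPD). Its direct differences were −0.76 in YPD and −0.58 in YPGly. Which of these effects acted was not tested, and for the other genes they cannot be told apart.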

How the data were processed

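The authors deposited 1 scanner table per one-colour Agilent array (Feature Extraction 10.5.1.1), whose values are background-corrected spot intensities, and a table of log2 values, used here only as an alternative. Per the labels, cDNA was primed with oligo-dT and carried 1 dye. The 2 spots of each of 6256 probes were averaged as log2 intensity after spots marked as outliers were left out, and the array's 75th percentile was subtracted, as in the study's methods. Probes were tested if 1 or more of the 6 groups had a mean intensity of 200 (5641 probes, 90.2%). Strains were compared with limma 3.58.1 in R 4.3.3 over 8 arrays, with Benjamini-Hochberg adjustment over all probes tested. A call needed an adjusted p below 0.05 and a 1.5-fold change, the study's thresholds, which its methods applied to an unpaired test. Errors are limma standard errors, with n = 4 per group. Array values have no read depth, and the number of arrays limits the precision.

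The members and gene lists were chosen with earlier results of these data known. Genes were named by rule: the 15 largest increases and decreases whose groups did not overlap, SEF1 and YBL065W, up to 6 called genes of each list with the largest change, all genes of lists of 9 or fewer, divergent neighbours and genes whose call an alternative changed. FUM1, RNR1, PDR12 and HXT6 were added after their values were seen. Genes under Sef1 peaks, and which peaks were the 50 most enriched, were taken from the study's peak lists. Locus tags matched 5756 probes to the RefSeq gene table (assembly R64), which served to find neighbours. Probe sequences were those the study gives for the array. Other scalings, filters, background corrections (normexp used the median spot signal, since a mean signal was not in the tables used), tests and left-out arrays were tried.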

Additional observations from a re-analysis of the deposited data

Results flagged for a closer look

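Among 214 groups of 4 arrays of the genes named, 5 held an array that stood apart from its group by Dixon's criterion, which chance meets in about 1 group in 20. These were YNL195C on WT replicate 1, the highest of its group at −0.030, SPB1 on SEF1-VP16 replicate 4, the highest at −0.54, GPI12 on SEF1-VP16 replicate 1, the highest at −1.24, and MET14 at 0.19 and CYC7 at 0.91 on SEF1-VP16 replicate 1, each the lowest.

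The strain difference differed between the media by limma's test of the difference itself for 597 probes, 79 of the 108 genes named among them. The naming rule favoured genes with large differences in YPD, and the test subtracts the difference in YPD. This count and the signs below thus follow in part from the naming. The values that follow are the log2 difference in YPGly minus that in YPD, with slide and medium changing together. They were negative, so that SEF1-VP16 was less above WT in YPGly, for PDH1 (−2.94), HO (−2.53), ECM13 (−2.16), PDR12 (−1.85), RNR1 (−1.83), INO2 (−1.74), APJ1 (−1.65), IDP2 (−1.64), NRG2 (−1.31), STR3 (−1.26), YDR124W (−1.24), FAA4 (−1.20), YMC2 (−1.15), BTN2 (−1.12), TAH18 (−1.05), UPS2 (−1.0), SIP4 (−0.79) and KTI12 (−0.60). In the TCA cycle they were negative for IDH1 (−1.36), CIT2 (−1.11), ACO1 (−0.98) and IDH2 (−0.70). Among genes of ribosomes and division they were −1.43 for SPB1, −1.42 for RRP9, −1.38 for UTP18, −1.28 for RPA12, −1.26 for UTP6, −1.18 for BFR2, −1.17 for LCP5 and RPS9A, −1.07 for RPA34, −1.49 for CLN2, −1.17 for FAR1 and −1.07 for CLN1.

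Most positive values came from genes lower in SEF1-VP16 in YPD and closer to WT, or above it, in YPGly. In sugar use and storage they were 2.51 for IMA5, 1.99 for HXT2, 1.39 for MAL12, 1.31 for HXT4, 1.25 for MAL31, 1.16 for MAL32, 0.96 for SUC2, 0.86 for MAL11, 0.61 for SNF3, 1.00 for GDB1, 0.75 for GSY2, 0.71 for ATH1, 0.66 for GLC3 and 0.60 for GPH1. In stress and other metabolism they were 1.77 for SPG1, 1.33 for POT1, 1.28 for CAT8, 1.26 for TKL2, 1.24 for ALD3, 1.18 for MAN2, 1.17 for CSR2, 1.11 for NDE2, 0.99 for FMP45, 0.98 for HSP12, 0.87 for GUT2, 0.84 for MRK1, 0.68 for CTT1, 0.67 for FBP1, 0.74 for PEX18, 0.69 for GIP3 and 0.60 for NDI1. The genes of unknown function gave 1.34 (YBR116C), 1.27 (YNL195C), 1.00 (YDL218W) and 0.90 (YMR206W). The difference was also more positive in YPGly for TIS11 (1.40), ICL2 (1.07) and the siderophore genes FIT3 (2.24), FIT2 (2.13), ARN2 (1.90), ARN1 (1.65) and FIT1 (0.78), and for HMX1 (1.02) and FRE2 (0.77), which were lower in SEF1-VP16 in YPD. The largest positive value was that of YBL065W, a reading frame beside SEF1, at 3.18, with a difference of −0.32 in YPD and 2.86 in YPGly. Its mean was −1.39 in SEF1-VP16 and −4.25 in WT in YPGly. In YPD it was −5.34 in SEF1-VP16, −5.02 in WT and −1.40 in sef1, where the neighbouring SEF1 is deleted.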

How the results depend on the processing

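The counts of calls stayed within 1.5 times of 516 under other scalings, filters, background corrections, tests and sources of values (459 to 537). Leaving out 1 array at a time gave 460 (without WT replicate 1) to 571 calls (without WT replicate 4), with 293 to 350 higher and 167 to 228 lower, and 528 to 660 for the test between the media. The lists then ranged over 63 to 84 higher for ribosome biogenesis, 5 to 9 for RNA polymerases I and III, 6 to 8 for cyclins, 6 to 7 for the TCA cycle and 18 to 18 for the strongest peaks, and over 8 to 11 lower for glycogen and trehalose, 11 to 14 for stress, 4 to 7 for hexose transport and 6 to 6 for maltose. With normexp 4 RNA polymerase genes were called. Replicate numbers did not pair the arrays (correlations of same-numbered deviations of 0.11, −0.12, 0.41 and −0.29), and a replicate block left 515 of the calls, 516 in all. With no fold minimum 2716 probes (1473 higher, 1243 lower) and 1803 between the media were called, and in the lists 120 for ribosome biogenesis, 18 for the polymerases, 14 for cyclins, 18 for glycogen, 25 for stress and 13 for maltose. A 2-fold minimum gave 114 (83 and 31), 136 between the media, and 23, 2, 3, 1 and 3 in the same lists up to stress, with 0 for hexose transport. With the slide as a term 173 (126 and 47) were called, with 3 for ribosome biogenesis, 1 for the polymerases, 0 for cyclins, 0 for glycogen, 1 for stress, 0 for maltose and 1 lower for hexose transport. In that fit 54 of the 108 named genes kept their sign but lost their call. There 21 of 108 named genes changed sign: SEF1 (1.08), YBL065W (2.25), HO (−0.11), TKL2 (0.0013), CIT2 (−0.39), HXT2 (2.39), HXT4 (1.29), HXT7 (0.42), IMA5 (2.03), SUC2 (0.20), POT1 (0.073), PDR12 (−0.24), HXT6 (0.76), TAH18 (−0.014), HMX1 (0.39), FRE2 (0.0051), ARN2 (1.41), GIP3 (0.17), TEF2 (0.23), APL4 (−0.049) and PFK2 (−0.22). HMX1 also lost its call without WT replicate 2 (−0.54), and KTI12 with quantile normalization (0.58). The cause of these changes was not tested.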
